A study of Macaca mulatta with 2 samples.

Results

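The haemoglobin and red cell genes examined here were HBA, HBA1, HBE1 and ALAS2, 4 of the 26533 genes in the feature list, chosen by gene symbol. HBA (ENSMMUG00000029310) and HBA1 (ENSMMUG00000019566) encode alpha chains of haemoglobin, HBE1 (ENSMMUG00000041831) encodes the epsilon chain, and ALAS2 (ENSMMUG00000008429) encodes the erythroid form of the first and rate-limiting enzyme of haem synthesis. They were followed across 2 Visium sections of posterior eyecup from rhesus macaques, 1 section per animal, each cut from an area of the right eye that had received no vector. NHP1 was a male of 5 years whose eye carried AAV2-CAG-hRPE65 in separate subretinal blebs, where the ubiquitous CAG promoter drives human RPE65. NHP2 was a male of 6 years whose eye carried AAV8-GRK1-hRPGR and, in a separate bleb, AAV8-GRK1-mScarlet, where the GRK1 promoter is active in photoreceptors. Both eyes had undergone vitrectomy and a subtenon injection of 40 mg triamcinolone, and they were harvested 12 weeks after vector delivery. These areas are therefore uninjected parts of treated eyes, not parts of untreated animals. Punches of 4 mm through retina, choroid and sclera were cut into sections of 10 μm and laid on slides with capture spots of 55 μm, each of which can hold several cells.

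Haemoglobin is a tetramer of alpha-type and beta-type globin chains, each holding a haem group, and it makes up most of the protein of red cells. The epsilon chain is the beta-type chain of the embryo, later replaced by fetal and then adult chains. Mature red cells have lost the nucleus but keep residual globin mRNA, so globin transcripts in a tissue section usually mark blood. Globin mRNA has also been described in cells outside the red cell lineage, among them neurons and the retinal pigment epithelium. In the eye, the choroid is a dense vascular bed under the retinal pigment epithelium, the inner retina has its own vessels, the outer retina has none, and the sclera is crossed by few vessels. In bulk spots like these, fewer red cells and less globin RNA per cell cannot be told apart.

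The sequences of the globin genes bear on what the counts can separate, so their last coding exons are shown from the RefSeq annotation of Mmul_10, the build that the submitters' processing notes name. Each runs 5′ to 3′ on the plus strand over 126 bases, and capitals mark the bases that differ between the 2 genes of a pair, HBA with HBA1 and HBE1 with HBB, the adult beta chain gene.

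HBA, chr20:191284-191409: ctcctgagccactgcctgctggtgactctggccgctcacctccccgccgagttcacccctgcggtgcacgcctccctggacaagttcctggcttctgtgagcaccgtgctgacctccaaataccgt
HBA1, chr20:196501-196626: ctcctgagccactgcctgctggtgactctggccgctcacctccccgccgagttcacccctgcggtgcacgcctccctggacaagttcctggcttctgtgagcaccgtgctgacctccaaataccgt
HBE1, chr14:63024186-63024311: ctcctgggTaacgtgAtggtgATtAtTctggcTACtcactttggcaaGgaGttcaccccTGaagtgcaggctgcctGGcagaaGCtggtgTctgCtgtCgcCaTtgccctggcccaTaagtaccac
HBB, chr14:63068992-63069117: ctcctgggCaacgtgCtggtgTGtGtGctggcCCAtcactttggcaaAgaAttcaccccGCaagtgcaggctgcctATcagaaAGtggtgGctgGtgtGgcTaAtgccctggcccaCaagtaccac

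The HBA and HBA1 exons had 0 differing bases, and the 100 bases after both stop codons were identical as well. Of the 337 stretches of 90 bases in the HBA coding sequence, 243 (72.1%) also occurred in HBA1. A read from these stretches matches both genes, and counting that keeps reads matching 1 gene leaves such reads out. A count of 0 for HBA1 is therefore uncertain, and so are the split between the 2 genes and the count of HBA itself, which may be too low. The HBE1 and HBB exons differed at 23 of 126 bases (81.7% identity), and 0 of the 352 stretches of 90 bases in HBE1 occurred in HBB. The feature list names no row for HBB, nor for HBA2, HBD, HBG1, HBG2 or HBZ. The gene models behind the counts were not used here, so whether the row named HBE1 also holds reads of the adult beta gene was not tested. In the RefSeq models HBA (chr20:190724-191412) and HBE1 (chr14:63022895-63024314) end at the stop codon, with 0 bases of 3′ untranslated sequence, while HBA1 (chr20:195741-196739) has 110 bases and ALAS2 (chrX:54735685-54755120, minus strand) has 124.

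NHP1 had 1484784 unique molecular identifiers (UMIs, each standing for 1 captured transcript) over 534 tissue spots, with a median of 1473.5 per spot, and NHP2 had 805726 over 470 tissue spots, with a median of 370.5. A further 523115 and 76907 UMIs lay on 4284 and 4027 spots off the tissue. Levels are UMIs of a gene per 10000 UMIs of all genes. For haemoglobin, values per spot are given beside the main levels because depth differed between layers. Intervals are exact 95% intervals that cover counting error only. With 1 section per animal no test was possible and no p-value was computed.

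Of the 4 genes, HBA and HBE1 were detected in the tissue of both sections, and HBA1 and ALAS2 had 0 UMIs there. In NHP1, HBA had 183 UMIs in 58 tissue spots, a level of 1.23 per 10000 (interval 1.06 to 1.42), with at most 61 UMIs in 1 spot. HBE1 had 337 UMIs in 88 tissue spots of NHP1, a level of 2.27 (2.03 to 2.53), with at most 112 in 1 spot. Both genes were thus present in a minority of spots, and HBE1 had the more UMIs in this animal, although the reads that HBA shares with HBA1 limit any ranking of the genes. In NHP2, HBA had 39 UMIs in 22 tissue spots, a level of 0.484 (0.344 to 0.662), with at most 6 in 1 spot. HBE1 had 17 UMIs in 16 tissue spots of NHP2, a level of 0.211 (0.123 to 0.338), with at most 2 in 1 spot. The order of the genes was the reverse in NHP2, with HBA the higher. For ALAS2, a count of 0 (read as at most 3 UMIs, a one-sided limit) allows a level of up to 0.0202 per 10000 in the tissue of NHP1 and 0.0372 in that of NHP2. For HBA1 the 0 sets no such limit, because reads shared with HBA may have been left out. ALAS2 had 2 UMIs in all, both off the tissue of NHP1, in 2 different spots.

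Haemoglobin UMIs, here the sum over the members, were found in 114 of 534 tissue spots of NHP1, or 21.3% (Clopper-Pearson interval 17.9 to 25.1), and in 34 of 470 of NHP2, or 7.23% (5.06 to 9.96). Off the tissue, 4.30% of spots in NHP1 and 0.0993% in NHP2 held at least 1 UMI, at median depths of 8 and 4 UMIs. Tissue spots with haemoglobin UMIs were deeper than the others, with medians of 2485 against 1229.5 UMIs in NHP1 and 682.5 against 353 in NHP2. When each spot was thinned to 69 UMIs, the shares came to 2.64% (1.45 to 4.38) in NHP1 over 531 spots and 1.98% (0.799 to 4.03) in NHP2 over 354 spots. At this common depth the intervals of the animals overlapped, and most of the positive spots of either section were lost.

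Many of the haemoglobin UMIs lay in a few patches, although the 17 HBE1 UMIs in the tissue of NHP2 were spread over 16 spots. In NHP1, 1 tissue spot held 61 HBA and 112 HBE1 UMIs out of 1719, so that 10.1% (8.68 to 11.6) of its transcripts came from these 2 genes. That spot carried 33.3% of all haemoglobin UMIs of the tissue of NHP1, and the 5 richest spots carried 56.3%. The next richest tissue spot, in the inner retina, had 25 HBA and 57 HBE1 UMIs out of 2067 (3.97%). For HBA the share of tissue UMIs in its richest spot was 33.3%, against a median of 4.17% over the 6847 genes with at least 30 UMIs in NHP1, and of these genes SST, which encodes the peptide somatostatin of scattered retinal neurons, was the only one with a higher share. For HBE1 the share was 33.2%, below SST, TAC1, another neuropeptide gene, and HBA. SST and TAC1 were named after their values were seen. HBA in NHP2 was less concentrated, with 15.4% in its richest spot against a median of 8.99% over 5135 genes, of which 352 were higher. The richest tissue spot of NHP2 held 6 HBA and 1 HBE1 UMIs out of 414.

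Spots with at least 5 haemoglobin UMIs, on or off tissue, were joined into patches in NHP1 where they lay within 2.1 spacings of each other. This gave 14 patches, 8 of them single spots, with 774 of the 1176 haemoglobin UMIs of the slide (65.8%). Of these patches, 3 held 53.0% of the UMIs of the slide. The largest by UMIs had 287 in 18 spots, of which only 2 were marked as tissue, beside the inner retina. The next had 276 UMIs in 4 spots, of which 3 were tissue of the region led by CHIT1, MLANA and EDN3, and another had 60 UMIs in 3 spots that were all off the tissue. In NHP2, where few spots reached that count, spots with at least 2 UMIs formed 6 patches, 4 of them single spots. The largest, at the outer edge of a piece of tissue, held 24 of the 70 UMIs of the slide in 5 neighbouring spots. In the authors' spatial statistics, Moran's I, which is near 0 for a gene scattered at random and rises when neighbouring spots share a level, was 0.0655 for HBA and 0.0986 for HBE1 in NHP1, with ranks of 909 and 483 among 13804 genes. In NHP2 it was 0.120 for HBA, rank 215 among 12542 genes, and 0.0617 for HBE1, rank 867. The median over all genes was close to 0 in both sections, at -0.000163 and -0.000985.

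**Figure D1:**
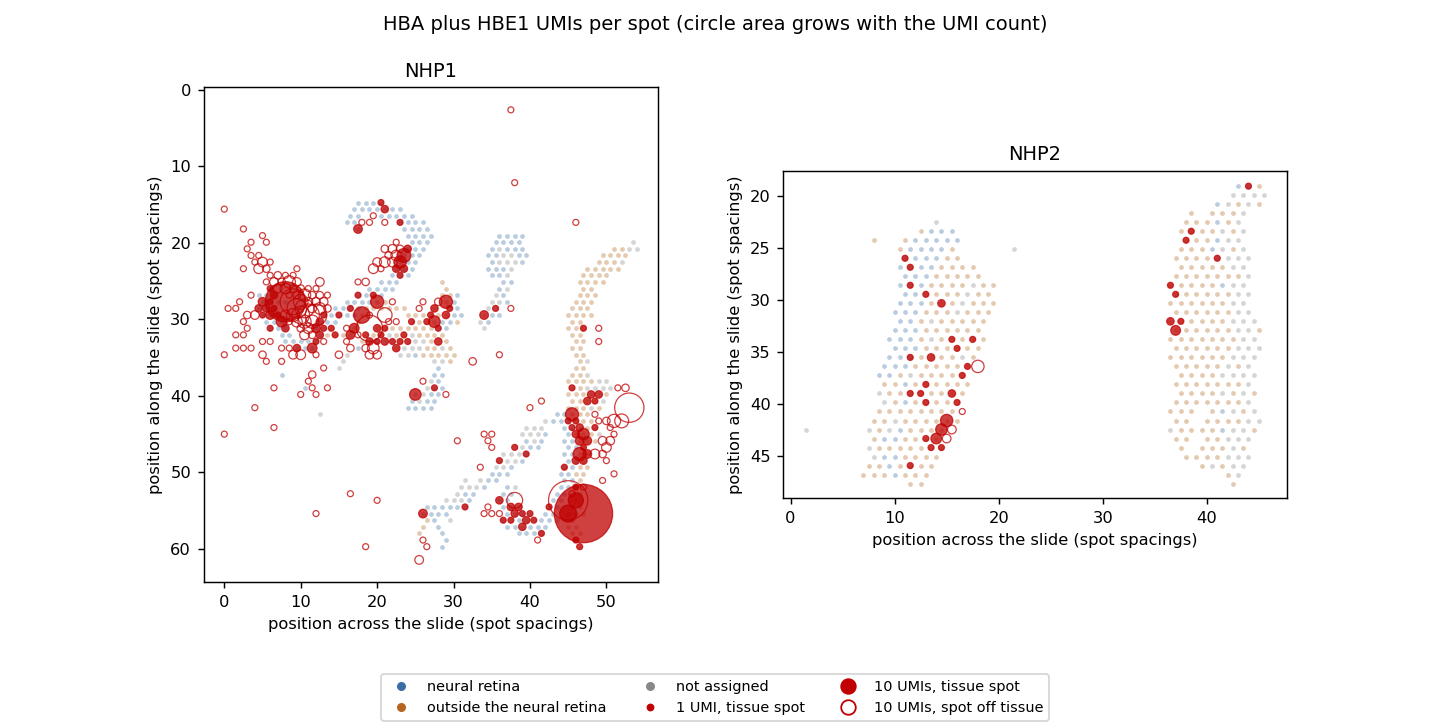
Position of haemoglobin UMIs (HBA plus HBE1) on the slides of NHP1 and NHP2, in spot spacings across and along the slide; small dots are tissue spots by region class, filled red circles are tissue spots with UMIs, open circles are spots off the tissue, and circle area grows with the UMI count. In NHP1 the richest tissue spot (173 UMIs) lies in the lower right and the 18-spot patch at the left, while no tissue spot of NHP2 exceeds 7 UMIs.

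To place the UMIs in layers, tissue spots were clustered without the red cell genes, and the regions were called neural retina, or outside the neural retina, by their markers of photoreceptors and inner retina against those of choroid and sclera. NHP1 had 5 neural retina regions (264 spots), 2 outside it (180 spots) and 1 that could not be assigned (90 spots). NHP2 had 2 neural retina regions (72 spots), 6 outside it (311 spots) and 2 not assigned (83 spots). In both animals haemoglobin was higher outside the neural retina per 10000 UMIs. In NHP1 the level was 13.3 outside (309 UMIs) and 1.56 in the neural retina (187 UMIs), a ratio of 8.54 (7.10 to 10.3). In NHP2 it was 2.65 (50 UMIs) and 0.0975 (6 UMIs), a ratio of 27.2 (11.7 to 77.7). HBA and HBE1 taken singly were each at least 2-fold higher outside in both sections per 10000 UMIs, with ratios of 8.69 (6.35 to 12.0) and 8.46 (6.71 to 10.7) in NHP1 and 39.2 (12.4 to 198.9) and 15.2 (4.25 to 82.7) in NHP2. As background, 13.8% of the 9165 genes compared in NHP1 and 16.2% of the 8108 in NHP2 passed the same 2-fold mark.

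The contrast was much smaller per spot, because spots of the neural retina held more UMIs of all genes. Per spot, NHP1 had 1.72 haemoglobin UMIs outside and 0.708 in the neural retina, a ratio of 2.42 (2.01 to 2.92). NHP2 had 0.161 and 0.0833, a ratio of 1.93 whose interval of 0.827 to 5.51 includes equal counts. Singly, HBA and HBE1 had ratios per spot of 2.47 (1.80 to 3.40) and 2.40 (1.90 to 3.03) in NHP1, and in NHP2 2.78 (0.878 to 14.1) and 1.08 (0.302 to 5.86), so the difference was not detectable there. Without the richest spot, the ratio per 10000 UMIs in NHP1 was 3.79 (3.01 to 4.75), and it was 4.94 (3.71 to 6.57) without the 5 richest spots.

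Among the regions of NHP1, the one led by CHIT1, MLANA and EDN3 had the highest haemoglobin level. CHIT1 encodes a chitinase of macrophages, MLANA a protein of pigment cells and EDN3 an endothelin, and the region had raised markers of choroid (17), sclera (14) and retinal pigment epithelium (15). Its 71 spots held 102 HBA and 186 HBE1 UMIs, together 21.2 per 10000 (18.8 to 23.8) and 4.06 per spot. Without its richest spot the level was 8.57 per 10000, above that of each other region of the section. The scleral region led by ANGPTL7, MYOC and CHAD, genes of fibrous and cartilage-like matrix, had 9 HBA and 12 HBE1 UMIs in 109 spots, at 2.18 per 10000 (1.35 to 3.33). These 2 regions differed by more than their counting intervals, but under another assignment of layers the order of choroid and sclera rested on the richest spot. When each spot was instead given to the layer whose marker list scored highest, the sclera spots of NHP1 had 213 UMIs at 17.7 per 10000 (15.4 to 20.3) and the choroid spots 85 at 6.44 (5.14 to 7.96). The richest spot fell in that sclera class, and without it the class had 40 UMIs at 3.37 (2.41 to 4.60), below the choroid class, which had 72 at 5.51 (4.31 to 6.94) without its own richest spot. In NHP2 the sclera class was higher than the choroid class, at 3.30 (2.39 to 4.44) against 1.31 (0.526 to 2.70), and at 2.77 (1.94 to 3.83) against 0.957 (0.311 to 2.23) without the richest spot of each.

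Within the neural retina of NHP1, the region led by SNX10, GAP43 and ASTN1, with 21 raised markers of inner retina, had 52 HBA and 88 HBE1 UMIs, at 2.41 per 10000 (2.03 to 2.84) and 1.49 per spot. A single spot gave 82 of those 140 UMIs, and the level without it was 1.001. The photoreceptor region led by OPN1MW3, CNGA1 and PLS1 had 7 HBA and 18 HBE1 UMIs in 68 spots, at 0.746 per 10000 (0.483 to 1.101), with no more than 3 UMIs in any spot. The region led by ENPP2 and RGR, genes of the retinal pigment epithelium and outer retina, had 5 and 10 UMIs, at 2.32 (1.30 to 3.82). The 2 smallest neural regions, led by GPATCH8 and by F5, had 3 and 4 haemoglobin UMIs, at 0.508 (0.105 to 1.48) and 0.2499 (0.0681 to 0.640). The level of the inner retina without its richest spot thus lay within the interval of the photoreceptor region, which had 0.669 without its own richest spot. Per spot, with all spots kept, these regions had 1.49 and 0.368. The intervals of the photoreceptor, GPATCH8 and F5 regions per 10000 UMIs overlapped. The region that could not be assigned had 24 UMIs, at 4.61 (2.96 to 6.86).

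In NHP2 the UMIs fell mainly in 3 of the 6 regions outside the neural retina. The region led by FGL2, EGFL6 and THBS4 had 20 HBA and 3 HBE1 UMIs in 70 spots, at 5.35 per 10000 (3.39 to 8.03), and the one led by MIA-RAB4B, PCOLCE and CPXM1 had 9 and 8 in 77 spots, at 1.64 (0.958 to 2.63). Another, led by a gene without a name and SFRP4, had 6 and 3 UMIs in 47 spots, at 6.44 (2.94 to 12.2). These regions carried more markers of sclera and choroid than of retina. The region led by PZP, ITM2B and TTR, with 8 raised markers of the retinal pigment epithelium, had 0 haemoglobin UMIs in 61 spots, which at its depth allows up to 2.89 per 10000. The region led by CCL26, SCARA5 and PMEL had 1 UMI, at 0.705 per 10000 (0.0178 to 3.93), so neither reached the level of the CHIT1 region of NHP1. The neural retina region led by SLC39A12 had 19 raised markers of photoreceptors and 12 of the retinal pigment epithelium. It had 2 HBA and 1 HBE1 UMIs, at 0.160 per 10000 (0.0330 to 0.468). The inner retina region led by ACTC1, BRSK1 and NEFH had 1 and 2, at 0.0701 (0.0145 to 0.205).

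**Figure D2:**
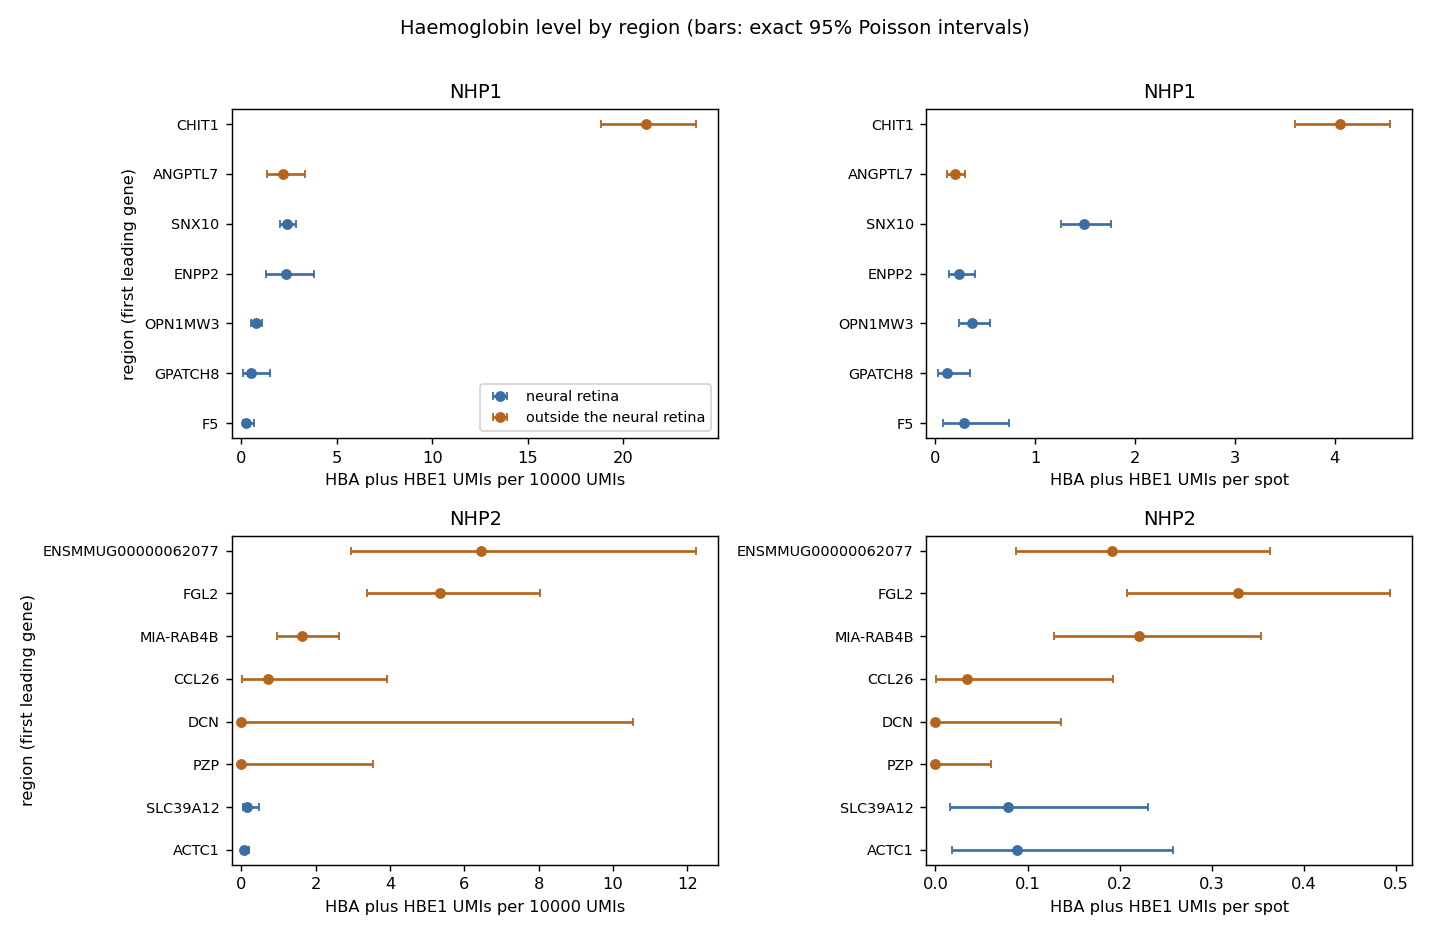
HBA plus HBE1 UMIs per 10000 UMIs (left) and per spot (right) in each assigned region of NHP1 and NHP2, named by its first leading gene; points are region values and bars are exact 95% Poisson intervals. The CHIT1 region of NHP1 stands at 21.2 per 10000 and 4.06 per spot, and per spot the neural retina regions of NHP2 lie among those outside it.

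Haemoglobin was not confined to spots marked as tissue. In NHP1, 55.8% of its UMIs lay off the tissue, against 26.1% of the UMIs of all genes, so that its level was 12.5 per 10000 (11.6 to 13.5) off the tissue and 3.50 (3.21 to 3.82) on it. The ratio of off tissue to tissue was 3.60 (2.95 to 4.39) for HBA and 3.55 (3.07 to 4.11) for HBE1, the same within their intervals. As background, 0.357% of the 6157 genes with at least 50 UMIs in NHP1 were at least 2-fold higher off the tissue, and the median gene had a ratio of 0.869. The 2 genes above HBA were CSPP1 and ENSMMUG00000052254, which were named after their values were seen. In NHP2 the level was 1.82 (0.995 to 3.05) off the tissue, from 14 UMIs, and 0.695 (0.525 to 0.903) on it, a ratio of off tissue to tissue of 2.62 (1.35 to 4.77). Per spot the order was the opposite in both sections, with 0.974 on the tissue and 0.153 off it in NHP1, and 0.119 and 0.00348 in NHP2.

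The level off the tissue of NHP1 did not fall steadily with distance. Spots next to the tissue had 304 UMIs at 9.92 per 10000 (8.83 to 11.1), those over 1 and up to 3 spacings away had 251 at 21.6 (19.0 to 24.5), those over 3 and up to 6 away had 86 at 11.4 (9.15 to 14.1), and those farther had 15 at 5.91 (3.31 to 9.75). A single spot gave 43 of the 86 UMIs between 3 and 6 spacings, and without it the level there was 5.73 (4.15 to 7.72). Per spot, however, the counts fell at each step, from 0.974 on the tissue to 0.673, 0.325, 0.0926 and 0.00704. Some of these spots were deep for spots off the tissue. One had 7 HBA and 17 HBE1 UMIs out of 2824, 1.73 spacings from the tissue, while another at 3.46 spacings had 11 HBA and 32 HBE1 out of only 95, so that 45.3% (35.0 to 55.8) of its transcripts were haemoglobin. In NHP2 all 14 UMIs off the tissue lay in 4 spots next to it, at 2.81 per 10000 (1.54 to 4.72), or 1.41 (0.568 to 2.91) without the richest of them, and the farther spots had 0. Beyond 6 spacings that count of 0 allows up to 2.15 per 10000, below the interval of NHP1 at that distance. Over 1 and up to 3 spacings it allows up to 3.18, and over 3 and up to 6 up to 7.97. Both limits lie above the 2.81 next to the tissue, so a fall with distance cannot be read in NHP2.

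**Figure D3:**
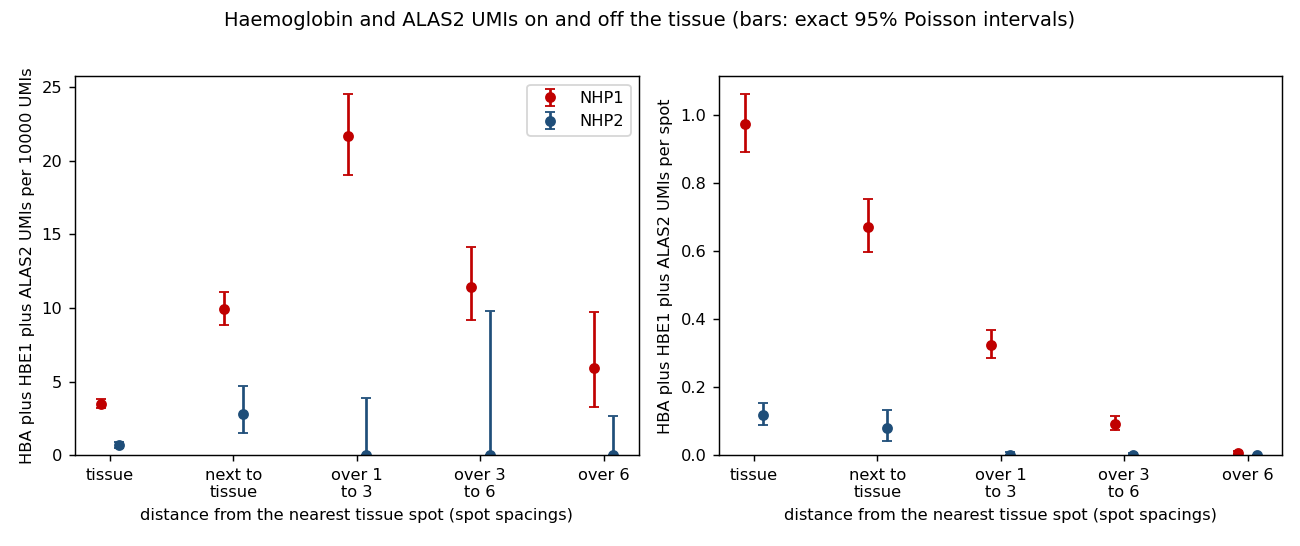
Haemoglobin and ALAS2 UMIs per 10000 UMIs (left) and per spot (right) against the distance from the nearest tissue spot, in spot spacings, for NHP1 (red) and NHP2 (blue); bars are exact 95% Poisson intervals. In NHP1 the level per 10000 peaks at 21.6 between 1 and 3 spacings, whereas the UMIs per spot decline from 0.974 on the tissue.

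The balance between the genes differed between the animals over all tissue spots, but not by more than counting error without the 5 richest of each section. The size of each ratio depends on how many HBA reads were left out for matching HBA1, so the ratios are read here only against each other. In the tissue of NHP1 there were 1.84 HBE1 UMIs per HBA UMI (1.53 to 2.22), and in that of NHP2 there were 0.436 (0.231 to 0.789), an odds ratio of 4.21 (2.25 to 8.18). Off the tissue the ratio was close to these values, with 1.82 (1.55 to 2.14) in NHP1 and 0.400 (0.0916 to 1.39) in NHP2. In NHP1 the ratio was 1.78 (1.41 to 2.27) outside the neural retina and 1.83 (1.35 to 2.51) within it, so the layers did not differ beyond counting error. The spots over 3 spacings from the tissue had 3 (1.89 to 4.92). In NHP2 the ratio was 0.389 (0.194 to 0.739) outside the neural retina and could hardly be read within it, where each gene had 3 UMIs. Without the 5 richest tissue spots of each section, the ratio was 1.70 (1.29 to 2.26) in NHP1 and 0.778 (0.358 to 1.66) in NHP2, an odds ratio of 2.18 whose interval of 0.969 to 5.01 includes no difference between the animals.

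At the level of spots, 32 tissue spots of NHP1 held both genes, which was 55.2% of the 58 with HBA and 36.4% of the 88 with HBE1, although HBE1 was found in 16.5% of all tissue spots. In NHP2, 4 spots held both, out of 22 with HBA and 16 with HBE1. A few spots ran against the balance of their section, such as a group of 4 spots beside the inner retina of NHP1 with 21 HBA and 5 HBE1 UMIs. Over the 509 tissue spots of NHP1 with at least 200 UMIs, HBE1 was the gene most like HBA among 5310, with a Pearson correlation of log-scaled levels of 0.44, followed by RNASE1 (0.23), a secreted ribonuclease of vessel walls, ENG (0.22), an endothelial receptor, SLC39A1 (0.21) and B2M (0.20). In the 306 such spots of NHP2 the correlation with HBE1 was 0.35, from only 17 UMIs, and the 5 genes with at least 50 UMIs most like HBA were NRBP1 (0.25), TGFBR2 (0.22), ENSMMUG00000061959 (0.21), DHRS3 (0.20) and SAMM50 (0.20). Spots of 1 section share a library and vary in depth, and apart from HBE1 these correlations were weak and the 2 lists shared no gene.

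**Figure D4:**
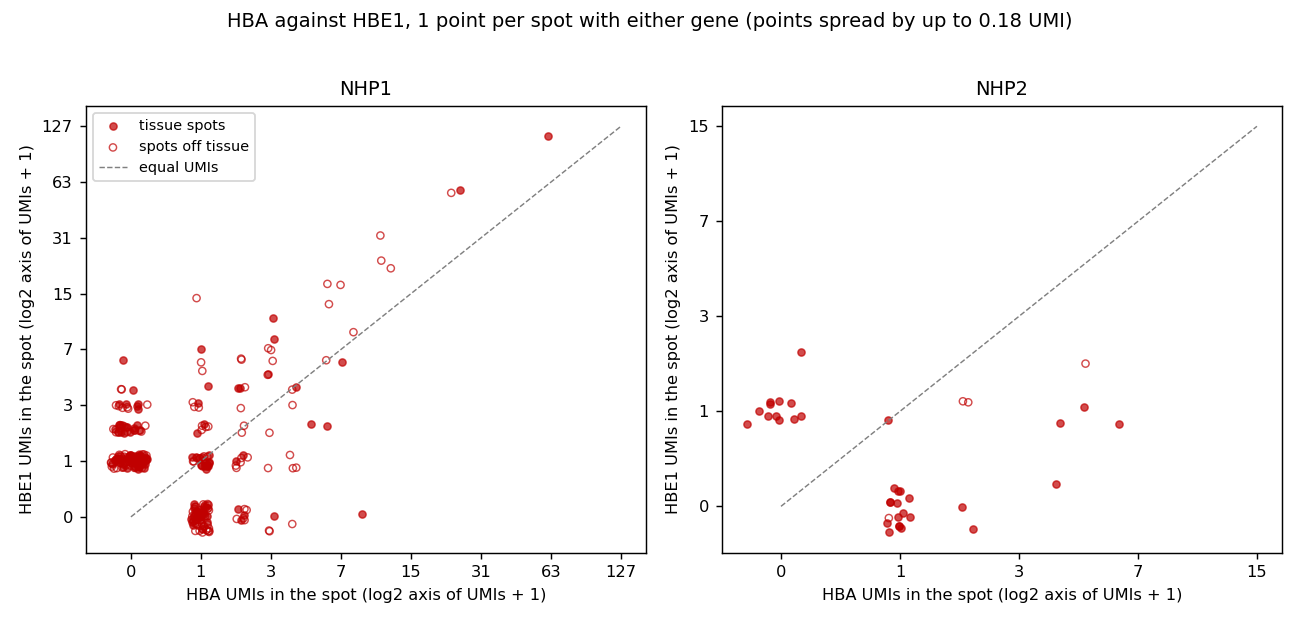
HBE1 against HBA UMIs in each spot with either gene, on log2 axes of UMIs + 1, for NHP1 (left) and NHP2 (right); filled points are tissue spots, open points are spots off the tissue, and the dashed line marks equal counts. The 2 richest tissue spots of NHP1 lie above the line, with 61 HBA and 112 HBE1 UMIs in the first, some spots with fewer UMIs lie on or below it, and the spots of NHP2 with at least 4 UMIs lie below it.

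Between the animals, haemoglobin was lower in NHP2, with a ratio of NHP2 to NHP1 of 0.198 (0.148 to 0.262) per 10000 tissue UMIs. The ratio was 0.393 (0.271 to 0.557) for HBA and 0.0930 (0.0535 to 0.151) for HBE1, and both genes passed the mark of a 2-fold lower level that 1.89% of 6705 genes passed. Outside the neural retina the summed ratio was 0.1996 (0.145 to 0.270), and within it 0.0626 (0.0227 to 0.139). Per tissue spot it was 0.122 (0.0912 to 0.161). Animal, eye, vector, library and depth differ together between these sections and cannot be told apart.

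The wider red cell lists were examined to see whether other transcripts of red cells accompanied the globins. Of the 6 globin and globin-chaperone genes with a row, HBM and HBQ1 had 1 UMI each in the tissue of NHP1, HBQ1 had 1 in that of NHP2, and AHSP, the chaperone of free alpha chains, had 0 in the tissue of both sections and 1 off the tissue of NHP1. Among 21 genes of the red cell membrane and its enzymes, 8 had 0 UMIs in the tissue of each section, no larger a share than over all genes, of which 48.0% in NHP1 and 52.7% in NHP2 had 0. SLC4A1 (the anion exchanger band 3), EPB42 and RHAG had 0 in both. Of 14 reticulocyte and erythroid factors, 7 had 0 UMIs in the tissue of NHP1 and 8 in that of NHP2, also near the share over all genes. GATA1, KLF1, NFE2 and GFI1B, transcription factors of the lineage, had 0 in both, while LMO2 had 8 and 4 and BCL11A 10 and 7.

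The list members that were well detected are ones many tissues express. Ratios of single list genes outside against within the neural retina are per 10000 UMIs. Per spot each is lower by the factor that took haemoglobin from 8.54 to 2.42 in NHP1 and from 27.2 to 1.93 in NHP2. SELENBP1, CYBRD1, VWF, EGFL7 and CD14, given below as higher outside in both sections, were thus lower outside per spot in NHP2. PRDX2, a peroxidase, had 867 UMIs in NHP1 and 470 in NHP2, and SLC2A1, the glucose transporter GLUT1, had 989 and 495. Both were lower outside the neural retina, with ratios of 0.738 (0.595 to 0.908) and 0.614 (0.495 to 0.755) in NHP1, where the globins were higher. Of the 10 haem synthesis genes with at least 10 UMIs in NHP1, FECH, which inserts iron into haem, was the only one at least 2-fold higher outside the neural retina, a share near the 13.8% of all genes, at 2.35 (1.19 to 4.45), and its ratio in NHP2 was 1.22 (0.393 to 3.30). ALAS1, the form of the first enzyme in all cells, had 80 UMIs in NHP1 and 27 in NHP2, where ALAS2 had 0. SELENBP1, a selenium-binding protein abundant in red cells, was higher outside in both sections, 4.59-fold (2.19 to 9.54) in NHP1 and 4.52-fold (2.09 to 10.04) in NHP2. Its list as a whole did not follow it. At least 2-fold higher outside were 1 of 9 of its genes with at least 10 UMIs in NHP1 and 2 of 10 in NHP2. These shares were near the 13.8% and 16.2% of all genes compared. A further 2 and 5 genes of the list were at or below 0.5. The share of all genes that low was not computed, so these counts are not read further. The red cell enzymes CA2, a carbonic anhydrase, and BPGM, which makes 2,3-bisphosphoglycerate, were lower outside, at 0.356 (0.181 to 0.639) and 0.297 (0.0941 to 0.720) in NHP1 and 0.0510 (0.00127 to 0.295) and 0.121 (0.0143 to 0.459) in NHP2.

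Genes for the clearance of haemoglobin and iron were detected in the tissue of each section, 13 of 13, where 13804 and 12542 of all 26533 genes were. CD163, the macrophage receptor for haemoglobin bound to haptoglobin, had 30 UMIs in NHP1 and was 11.6-fold (4.81 to 30.9) higher outside the neural retina. It was also among the choroid markers by which the regions were assigned, so this ratio was partly set by that rule. NHP2 had 4 CD163 UMIs in all. CYBRD1, an iron reductase, was 6.92-fold (4.96 to 9.69) higher outside in NHP1 and 10.5-fold (7.21 to 15.6) higher in NHP2. TF, the iron carrier transferrin, was instead lower outside, at 0.256 (0.230 to 0.284) and 0.144 (0.121 to 0.169). HMOX2, BLVRA and HP, genes of haem breakdown and haemoglobin binding, had ratios of 0.969, 1.16 and 1.03 in NHP1. Their ratios in NHP2 were 0.680, 0.251 and 0.754. FTH1, a ferritin gene, had 1.52 in NHP1 but 0.476 in NHP2. At least 2-fold higher outside were 5 of 11 genes of this list with at least 10 UMIs in NHP1, CD163 among them, and 3 of 10 in NHP2. Of all genes compared, 13.8% and 16.2% passed this mark. In the 9 spots of the CHIT1 region of NHP1 with at least 5 haemoglobin UMIs, this list stood at 78.8 per 10000, below the 125.1 of the other 62 spots of that region, a ratio of 0.630 (0.533 to 0.740), and within the SNX10 region the ratio of such spots to the others was 0.799 (0.730 to 0.873). In NHP2, spots with at least 2 haemoglobin UMIs had ratios of 0.965 (0.541 to 1.61) in the FGL2 region and 0.929 (0.443 to 1.72) in the MIA-RAB4B region. TF alone gave 7985 of the 15377 UMIs of this list in NHP1.

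Most markers of vessel walls were also higher outside the neural retina per 10000 UMIs, while single regions and spots gave a mixed picture. Per spot, the summed list was lower outside the neural retina in both sections. Of 13 endothelial and mural genes with at least 10 UMIs in NHP1, 11 were at least 2-fold higher outside the neural retina. In NHP2 8 of 12 were, where 13.8% and 16.2% of all genes compared passed this mark. Many of these vessel wall genes, VWF among them, were also choroid markers by which the regions were assigned. These counts were thus partly set by that rule, and the share of all genes is no equal measure for them. VWF, the endothelial clotting factor, was 6.97-fold (5.01 to 9.73) higher outside in NHP1 and 4.25-fold (2.81 to 6.48) in NHP2. CLDN5, a tight junction gene of the blood-retina barrier, was at 0.915 (0.616 to 1.32) and 0.762 (0.512 to 1.11). ESAM stood at 2.16 and 0.688, and EGFL7 at 7.94 and 4.12. CLDN5, ESAM and EGFL7 were not among those choroid markers, and they did not share a direction. Per 10000 UMIs the summed list was highest in NHP1 in the CHIT1 region, at 30.3 (27.5 to 33.4), against 5.64 (4.86 to 6.50) in the OPN1MW3 photoreceptor region. Per spot the F5 region was higher, with 139 UMIs of the list in 14 spots against 412 in 71 spots of the CHIT1 region. In NHP2 the summed list per 10000 UMIs was highest in the regions led by DCN, at 48.6 (28.3 to 77.9), and by CCL26, at 33.1 (24.3 to 44.0). There the globins could hardly be read, with 0 and 1 haemoglobin UMIs. Those levels came from 17 UMIs of the list in 27 spots and 47 in 29 spots. Per spot the neural retina regions led by ACTC1 and SLC39A12 were highest, with 290 in 34 spots and 183 in 38. Per 10000 UMIs the list stood at 26.5 (18.6 to 36.5) in the region with SFRP4, 17.5 (13.7 to 21.9) in the FGL2 region and 17.9 (15.4 to 20.7) in the MIA-RAB4B region. Within the CHIT1 region, the 9 spots with at least 5 haemoglobin UMIs had 27.2 per 10000 and the other 62 had 30.9, a ratio of 0.881 (0.654 to 1.17). Within the SNX10 region 4 such spots had 16.3 and the other 90 had 8.54, a ratio of 1.90 (1.49 to 2.40). Such spots were picked by count, and over the regions of NHP1 that held them they were deeper, with medians of 2067 against 1007 UMIs. The SNX10 ratio, like those of the other lists there, weights spots by depth. Its spot with 82 haemoglobin UMIs had 2067 UMIs of all genes, while a patch of 4 spots, 2 of them SNX10 tissue, had 26 haemoglobin UMIs among 51165. In NHP2, spots with at least 2 haemoglobin UMIs had a ratio to the others of 0.666 (0.177 to 1.78) within the FGL2 region and 2.40 (1.02 to 4.83) within the MIA-RAB4B region, from 4 and 8 UMIs of the list. The part of vessel density in the globin levels was not tested.

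Genes of other blood cells were unevenly detected. Of 10 platelet genes, 7 had 0 UMIs in NHP1 and 8 in NHP2, against the 48.0% and 52.7% of all genes at 0, with PPBP, GP9 and GP1BB at 0 in both, and only GNG11, which vessel walls also express, reached 10. S100A8, a calcium-binding protein of neutrophils and monocytes, had 27 UMIs in 21 tissue spots of NHP1, 37.9-fold (11.4 to 197.8) higher outside the neural retina, and 0 in NHP2. The neutrophil granule genes ELANE, MPO and LTF had 0 in both. Most UMIs of the neutrophil and monocyte list, 345 in NHP1 and 203 in NHP2, came from LYZ, the lysozyme gene, with 271 and 152. CD14, a receptor of monocytes and macrophages, had 29 and 48 and was 7.99-fold (3.53 to 18.9) and 9.80-fold (4.98 to 20.7) higher outside. LYZ was 2.52-fold (1.93 to 3.29) higher outside in NHP1 but lower in NHP2, at 0.587 (0.359 to 0.920). At least 2-fold higher outside were 3 of 3 genes of this list with at least 10 UMIs in NHP1 and 1 of 2 in NHP2. Of all genes compared, 13.8% and 16.2% passed this mark. In the haemoglobin-rich spots this list had ratios to the other spots of 0.674 (0.259 to 1.48) within the CHIT1 region and 1.01 (0.491 to 1.88) within the SNX10 region of NHP1. In NHP2 the ratios were 2.96 (0.535 to 10.95) within the FGL2 region and 5.14 (1.01 to 16.5) within the MIA-RAB4B region, from 3 UMIs of the list in the rich spots of each. The plasma protein gene ALB had 0 UMIs in both sections.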

How the data were processed

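Visium spatial expression was measured in 2 sections, 1 per animal, of uninjected areas of the right eyes. The labels describe the tissue both as fresh frozen and as fixed in PFA before sectioning. For every spot and gene, the authors deposited the raw counts of UMIs, made with Space Ranger 2.1.0 against Mmul_10, with the position of each spot and a mark for tissue. They also deposited a table in which Moran's I is a score computed by Space Ranger per gene; its p-values and normalized averages were not used. The summed counts in that table equalled the tissue sums of the matrix for 13804 of 13804 genes in NHP1 and 12542 of 12542 in NHP2. The aligner's handling of reads that match several genes is not given in the sources used here. HBA1 has no name in the feature list and, like 564 of the 9855 unnamed rows, was named by its Ensembl ID from a reference table.

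Tissue spots of each section were clustered with scanpy 1.11.5 and leidenalg 0.10.2 (2000 variable genes, 20 components, 15 neighbours, resolution 1) after leaving out the 54 rows of the red cell lists. Leading genes are those with the highest fold over the rest of the section among genes found in at least 25% of the region's spots. A region was assigned to the neural retina, or outside it, when at least 3 markers of that side had at least 3 UMIs and a fold of 1.5 and were at least 2 times as many as those of the other side. Markers of the retinal pigment epithelium were not used for this, and the rule was set after the regions were seen. Intervals are Poisson for UMI sums, Clopper-Pearson for shares and conditional binomial for ratios (scipy 1.17.1), and were tested on simulated counts. A count of 0 is read as at most 3 UMIs. The slides share 4341 spot barcodes by design, of which 5 held haemoglobin UMIs in both sections.

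The members and the gene lists were chosen with earlier results of these data known. The genes named are the members, genes of the lists with at least 10 UMIs over both sections by role and those at or near 0 that define a lineage, the 5 genes most like HBA among those with at least 50 UMIs, and the leading genes of regions. Alternatives were HBA alone, a minimum of 2 UMIs or of 200 UMIs per spot, thinning (seed 1), leaving out the 1 or 5 richest spots, another scaling, other clusterings or marker scores, spots over 3 spacings from tissue, and values per spot. The patches, the comparison of rich spots within single regions, and the alternatives for the ratio of HBE1 to HBA were chosen after seeing the data. The treated sections and single-cell libraries were not analysed here, and some single genes of the lists are not reported here.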

Additional observations from a re-analysis of the deposited data

How the results depend on the processing

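Of 60 alternative values, 35 stayed within the interval of the reported value, 23 moved beyond it in the same direction and 2 reversed. Both reversals were of tissue against off tissue, whose ratio per spot, an alternative added after seeing the data, was 6.36 in NHP1 and 34.3 in NHP2. With HBA alone, the tissue level was 1.23 per 10000 in NHP1 and 0.484 in NHP2, the share of positive tissue spots 10.9% and 4.68%, and the ratio of NHP2 to NHP1 0.393. Without the tissue spot richest in the members, NHP1 had a level of 2.34, a ratio of tissue to off tissue of 0.187 and a ratio of outside to neural retina of 3.79. Without the 5 richest tissue spots these were 1.54, 0.123 and 4.94, and the level of NHP2 was 0.399. Scaling to UMIs without mitochondrial genes, the 50 most abundant genes and the members gave a level of 4.31 in NHP1. The share of spots with at least 2 UMIs was 10.9% in NHP1 and 1.70% in NHP2, and after thinning 2.64% and 1.98%. Against spots farther than 3 spacings from tissue, the ratio of tissue to off tissue in NHP1 was 0.349, and 0.606 without the richest of those spots, also added after seeing the data. It could not be computed in NHP2, where those spots had 0 UMIs. Per spot, the ratio of outside to neural retina was 2.42 in NHP1 and 1.93 in NHP2, and the ratio of NHP2 to NHP1 was 0.122. In the neural retina regions only, that ratio was 0.0626. The causes of these moves were not tested, apart from those that the construction sets, such as fewer UMIs counted. No paired analysis was possible because each animal has 1 section and the labels give no replicate numbers. NHP2 has 56 haemoglobin UMIs in tissue, so its regions and its balance of HBE1 to HBA rest on few molecules. Leaving out the 5 richest tissue spots of each section, chosen after seeing the data, moved the odds ratio of HBE1 to HBA between NHP1 and NHP2 from 4.21 to 2.18 (0.969 to 5.01).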
